A study of Rattus norvegicus with 4 samples.

Results

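Apolipoprotein E and 9 other genes of lipid carriage and efflux were followed across sorted olfactory ensheathing cells. The genes were Apoe, Apoc1, Apod, Clu, Lpl, Abca1, Abcg1, Pltp, Nr1h3 and Lrp1, taken by gene name from the array file. They had 13 of the 41012 gene probes on the array and 22 of its 43379 gene spots. The filter on dim probes kept 11 of the 13 probes, so 9 of the 10 genes were tested, among 22225 genes in all, and Clu was not.

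Ensheathing cells are the glia that surround olfactory axons on their way from nose to brain. Cultures of them from male Fischer rats were sorted by flow cytometry on p75, the low-affinity neurotrophin receptor. The p75High group held the cells with high p75 and the p75Low group those with low p75, with a stated purity of 98%, and the labels name no treatment other than the sort. Each of 4 two-colour Agilent arrays compared 1 p75High sample in Cy5 with its paired p75Low sample in Cy3, after both had been amplified by a global PCR. The labels give neither the age of the rats nor whether the 4 biological replicates came from separate animals or cultures. The p-values therefore cover only how far these 4 pairs spread, part of which may be technical. The dyes were never exchanged, so a dye effect and the difference between the groups cannot be told apart. In sorted populations measured in bulk, fewer cells of a type and less RNA per cell cannot be told apart either.

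The number of probes well above background ran from 22463 to 28062 per array for p75High and from 23042 to 26172 for p75Low. Ngfr, which encodes p75, had a log2 ratio of p75High over p75Low of 5.805 ± 0.53 (SD, n = 4 arrays, limma adjusted p = 0.0262), in the direction of the sort. Of 15 tested markers of ensheathing and Schwann glia, 13 were well above background in p75High on all 4 arrays and 10 were in p75Low. Every tested gene had passed the filter on dim probes, so these counts are partly set by it. With a stricter filter, which asks for one channel on all 4 arrays, 18265 of the 22225 genes remained. All ratios below are log2 values of p75High over p75Low on the same array, so a negative value means less signal in p75High. The log2 signals below were also quantile normalized across arrays on the mean of both channels.

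Cells export cholesterol and phospholipid onto lipid-poor particles. Apolipoprotein E is the main protein of such particles in the brain, where glia and macrophage-lineage cells make it. The transporters Abca1 and Abcg1 load lipid onto the particles, Pltp moves phospholipid between them, and Lpl cuts the triglycerides they carry. Lrp1 is a surface receptor that takes up particles bearing apolipoprotein E. The oxysterol sensor Nr1h3 (LXR alpha) is a nuclear receptor that switches on Abca1, Abcg1, Apoe, Pltp and Lpl in macrophages.

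The probes that carry the results are shown here because the values below are values of these stretches of sequence, not of whole transcripts. Coordinates are those of the array file in rat build rn4, per the file headers. Their position within exons or untranslated regions was not analysed. The Apoe probe lies on the minus strand at chr1:79003795-79003854.
Apoe: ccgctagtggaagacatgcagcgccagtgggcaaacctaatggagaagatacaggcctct
The brightest Pltp probe lies on the minus strand at chr3:155877758-155879914. Its 60 bases were spread over 2157 bases of the genome, so they do not form 1 unbroken stretch of it.
Pltp: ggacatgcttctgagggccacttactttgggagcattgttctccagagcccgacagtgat
Lrp1 was measured by probes 43946 bases apart that gave different ratios. The brighter is at chr7:67521714-67521773 and the other at chr7:67565586-67565793, both on the minus strand.
Lrp1 brighter: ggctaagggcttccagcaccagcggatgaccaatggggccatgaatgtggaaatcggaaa
Lrp1 other: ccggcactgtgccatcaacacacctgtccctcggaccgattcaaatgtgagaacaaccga
The Abca1 probe, whose signal stood apart on 1 array, is on the minus strand at chr5:70493613-70493672.
Abca1: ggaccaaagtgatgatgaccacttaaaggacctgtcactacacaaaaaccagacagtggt

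Of the 9 genes tested, Apoe and Pltp were lower in p75High past the threshold, a limma adjusted p under 0.05, and none was higher. Over all genes tested, 0.436% were lower at that threshold and 0.31% were higher. At an unadjusted p under 0.05, 4 of the 9 were lower (Apoe, Pltp, Lpl and Abcg1) and 0 were higher, beside 6.89% lower and 5.84% higher over all genes. The median ratio of the 9 genes was -2.48, and that of all genes tested was -0.03. By array, the median of the 9 genes was -3.29, -0.19, -2.22 and -0.17, so it lay close to 0 on replicates 2 and 4. It was -1.74 without the filter on dim probes, -1.001 with the stricter filter, which drops Lpl and Abcg1, and -1.66 without replicate 4. Apoe and Pltp were negative on all 4 arrays with both channels well above background. With Lpl, 3 of the 9 genes had a negative ratio on all 4 arrays, beside 13% of all genes tested. Lpl was negative on the 3 arrays that detected it. The filter kept Lpl and Abcg1 only through p75Low, the group where they were higher, so their place among the 4 is no separate support. The spread between arrays was wide over the whole table, with a median SD of 1.14 for a gene.

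**Figure D1:**
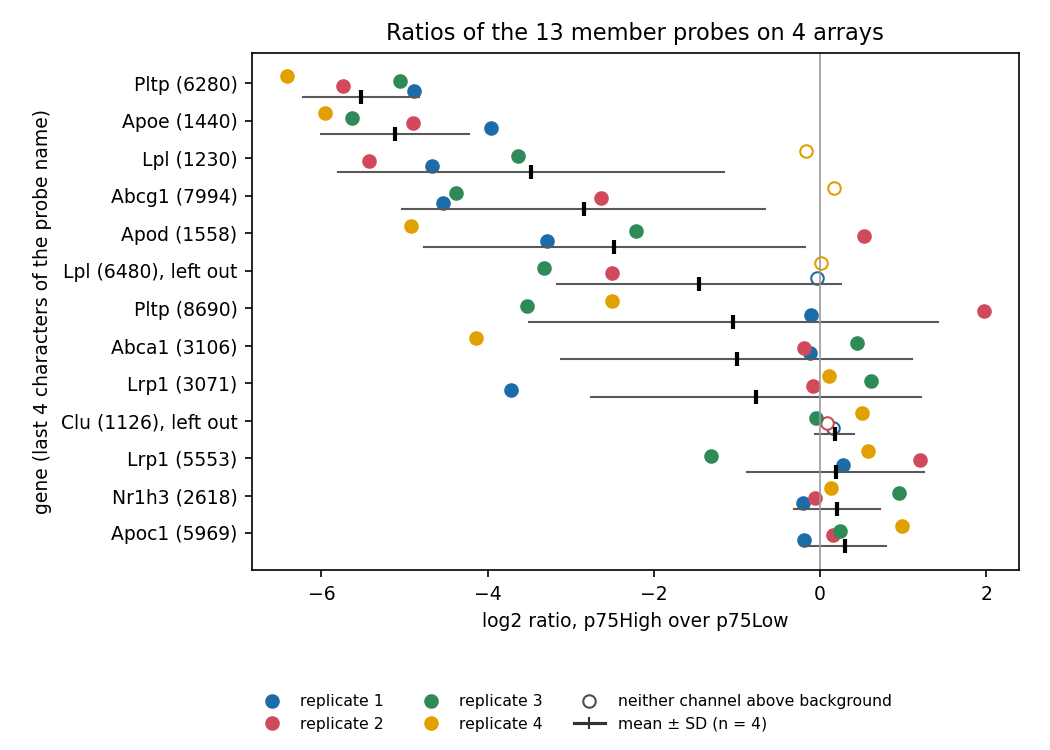
Log2 ratio of p75High over p75Low for each of the 13 member probes (x axis) on replicates 1 to 4, with the mean and SD of the 4 arrays under the points. The Apoe probe and the brightest Pltp probe lie between -3.96 and -6.42 on all 4 arrays, whereas the Lpl and Abcg1 probes fall to near 0 on replicate 4, where neither channel was above background (open points).

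Apoe had a log2 signal in p75Low of 15.75, 16.18, 16.59 and 16.95 on replicates 1 to 4. In p75High the same probe read 11.80, 11.28, 10.96 and 10.99. Every p75Low sample lay above every p75High sample, and both channels were well above background on all 4 arrays. How many of all genes were separated in this way was not counted. The ratios were -3.96, -4.90, -5.63 and -5.96. The mean ratio was -5.11 ± 0.89 (SD, n = 4), a 34.6-fold difference, with an SE of 0.44, a 95% interval of -6.27 to -3.95 and an adjusted p of 0.0314 from limma over all genes. Without the filter on dim probes, the same ratio had an adjusted p of 0.0611. With any 1 array left out, no gene of the table passed the threshold, and the mean for Apoe lay between -5.50 and -4.83.

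Apoc1, which encodes a small apolipoprotein that tempers lipoprotein uptake, lies beside Apoe, with its probe 7.05 kb away at chr1:78996746-78996805. Its log2 signal was 8.35, 7.56, 7.60 and 7.44 in p75Low and 8.16, 7.72, 7.85 and 8.43 in p75High. These ranges overlapped. The ratios were -0.19, 0.16, 0.25 and 0.99, with a mean of 0.30 ± 0.50 (SD, n = 4, adjusted p = 0.707) and a 95% interval of -0.56 to 1.16. On each array Apoe had the lower ratio, and the difference of Apoe minus Apoc1 was -3.77, -5.06, -5.88 and -6.95 log2 units. Readings not well above background, such as Lpl in p75High on replicates 3 and 4, were 5.48 and 6.10. Apoc1 read at most 8.35 in p75Low, so its probe could not have shown a drop as large as that of Apoe. The mean difference was -5.42 ± 1.34 (SD, n = 4), and an exact sign-flip permutation test over 4 arrays cannot go below p = 0.125. Within 50 kb of the Apoe probe, the other named genes kept by the filter also did not pass. The ratio of Apoc2, an activator of lipoprotein lipase, was 0.46 ± 1.16, that of Apoc4 was -0.14 ± 1.01, and that of Nectin2, a cell adhesion molecule, was -1.20 ± 0.55 (adjusted p = 0.312). The Tomm40 probe was not well above background in either channel on any array.

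A second probe at the Apoe locus was listed under the name X04979, which the array file describes as the rat gene for apolipoprotein E. It fell outside the choice by gene name and was looked at after its values were seen. It lies 2059 bases away on the same strand, at chr1:79005854-79005913. Its ratios were 0.29, -0.40, -0.32 and -5.46, with a mean of -1.47 ± 2.68 (adjusted p = 0.601), and both channels were well above background on all 4 arrays. Only on replicate 4 did it read a ratio near that of the Apoe probe.

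Apod, a lipocalin that binds small lipids and is made by glia, had a log2 signal of 11.62, 12.65, 13.36 and 14.70 in p75Low. In p75High it read 8.33, 13.18, 11.15 and 9.78. On replicates 1, 3 and 4 it was lower in p75High, at ratios of -3.29, -2.22 and -4.92, and on replicate 2 the ratio was 0.53. The mean of -2.48 ± 2.29 (SD, n = 4) had an adjusted p of 0.398, and its 95% interval reached from -4.99 to 0.04. Without replicate 2 the mean was -3.48 (adjusted p = 0.354). A probe named AA925632, on the opposite strand and 67 bases away, read -4.30, 0.44, -2.49 and -5.88 on the same arrays. Its positive value also fell on replicate 2. The array file places the Apod probe at chr11_random:890897-890956.

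Clu, a secreted chaperone that travels on lipoprotein particles, was left out by the filter. Its probe at chr15:45404790-45405138 was well above background in p75High on 1 array, replicate 4, and in p75Low on 1 array, replicate 3. Its ratios of 0.16, 0.09, -0.05 and 0.51 were given no test.

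Pltp had a log2 signal in p75Low of 13.93, 14.45, 13.26 and 15.80 by its brightest probe. The same probe read 9.04, 8.70, 8.20 and 9.38 in p75High. The groups did not overlap, a separation that was not counted over all genes, and both channels were well above background on all 4 arrays. The ratios were -4.88, -5.74, -5.06 and -6.42. The mean ratio was -5.53 ± 0.70 (SD, n = 4), a 46.0-fold difference, with an SE of 0.38, a 95% interval of -6.53 to -4.52 and a limma adjusted p of 0.0262.

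The other Pltp probe, at chr3:155871685-155871744, did not share this pattern. It read -0.11, 1.97, -3.52 and -2.50, with a mean of -1.04 ± 2.47 (adjusted p = 0.682 in the limma fit over 24911 probes, of which 0.393% were lower at an adjusted p under 0.05). The median over both probes ended the call of Pltp, at -3.28 (adjusted p = 0.152). This second probe lies between probes of Ctsa, which encodes the lysosomal protease cathepsin A and stands in the array file under its older name Ppgb. Those Ctsa probes are 118 and 123 bases away on the opposite strand. They read 0.43, 0.94, -4.82 and -3.42, and -2.33, 1.48, -3.73 and -3.73. The root mean square difference from the second Pltp probe over the 4 arrays was 0.988 and 1.296 for these Ctsa probes, against 4.999 for the brightest Pltp probe. A further Ctsa probe, 970 bases away, differed by 2.58. Whether the second Pltp probe read RNA of the other strand was not tested.

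Lpl, the lipoprotein lipase, had a log2 signal in p75Low of 11.07, 11.54, 9.12 and 6.27 by its kept probe at chr16:22533824-22533883. In p75High the probe read 6.40, 6.11, 5.48 and 6.10. On replicate 4 neither channel was well above background, so that array holds no measured difference. The ratios were -4.67, -5.42, -3.64 and -0.17, with a mean of -3.48 ± 2.32 (SD, n = 4). In limma its p was 0.0179 unadjusted and 0.310 adjusted over all genes. With readings left out where neither channel was above background, an alternative chosen after seeing the data, the mean over 3 arrays was -4.58 (adjusted p = 0.0846). Without replicate 4 on the whole table the mean was the same -4.58, at an adjusted p of 0.122. By the scanner's own ratios, which were made with another background subtraction, the mean was -5.55 (adjusted p = 0.174). The other Lpl probe, spotted 10 times and left out by the filter, read -0.03, -2.51, -3.32 and 0.01. A probe named AI237731 on the opposite strand, 385 bases from the kept probe and 145 from the other, read -3.09, -3.63, -2.85 and -0.27, again nearest 0 on replicate 4.

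**Figure D2:**
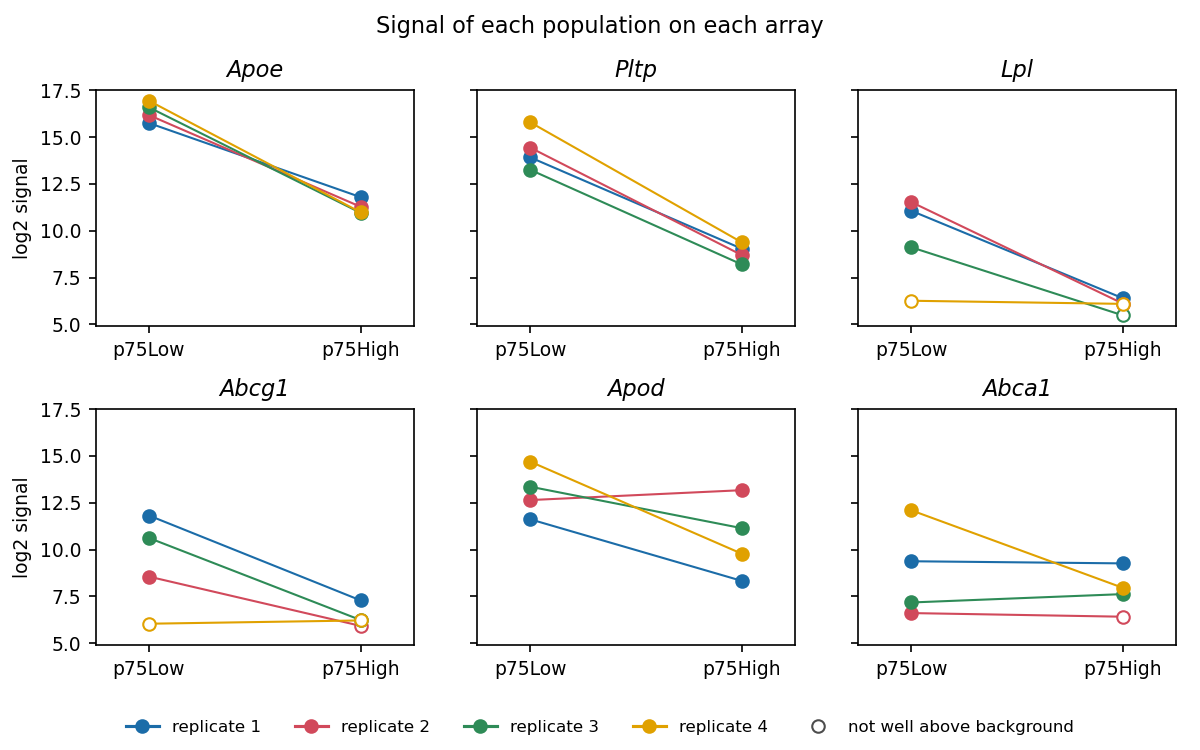
Log2 signal (y axis) of the probe that stands for each of 6 genes in p75Low and p75High, with a line for each array and open points where the probe was not well above background. Apoe and Pltp drop on every array. Abca1 is far lower in p75High on replicate 4 only, and Apod reads slightly higher in p75High on replicate 2.

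Abcg1, a transporter that loads cholesterol onto lipid-bearing particles, was measured at chr20:9459359-9459418. Its log2 signal was 11.82, 8.56, 10.62 and 6.05 in p75Low and 7.29, 5.93, 6.24 and 6.22 in p75High. Neither channel was well above background on replicate 4. The ratios were -4.53, -2.63, -4.38 and 0.18, with a mean of -2.84 ± 2.19 (SD, n = 4). In limma its p was 0.0297 unadjusted and 0.346 adjusted over all genes. With readings at background left out, the mean over 3 arrays was -3.85 (adjusted p = 0.133), the same mean as without replicate 4 (adjusted p = 0.163). Probes of other names near Abcg1 were left out by the filter and differed from it. AI179131, on the opposite strand 95 bases away, read -3.38, -0.10, -2.73 and -0.06, and CV073258, on the same strand 1611 bases away, read 0.10, -0.43, 0.19 and -2.02. Lpl and Abcg1 were both lower in p75High on each array that detected them, and neither passed the test over all genes. The filter kept both only through p75Low, well above background on 3 arrays against 2 for p75High. For Lpl on replicate 3 and Abcg1 on replicate 2, only p75Low was detected. A negative ratio there follows from how detection was defined and is no separate support.

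Abca1, which hands cholesterol to lipid-poor apolipoproteins, had a log2 signal in p75Low of 9.38, 6.61, 7.18 and 12.10. In p75High it read 9.27, 6.42, 7.63 and 7.96. On replicate 2 p75High was not well above background and p75Low read only 6.61, so that array could not have shown a large drop. The ratios were -0.11, -0.19, 0.45 and -4.14, so the mean of -1.001 ± 2.11 (SD, n = 4, adjusted p = 0.649) rested on replicate 4, and without that array it was 0.05. The 95% interval ran from -3.34 to 1.34. The p75Low sample of replicate 4 was the highest of the 8 readings for this probe. Of 5 kept probes of other names within 3 kb, AY325248 on the opposite strand read 0.50, -0.16, 2.85 and -4.53, and TC626632 on the same strand read 0.18, -1.62, -1.65 and -3.38. The nearest, AW918387 on the same strand 561 bases away, read -0.0039, -1.59, 2.40 and -0.72, and CB557036, also on that strand, read 3.21, -3.40, -0.60 and 1.77. BE107198 on the opposite strand read 0.70, -1.51, -1.35 and -1.80. These probes differed among themselves, and 2 of the 5 were below -3 on replicate 4.

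Nr1h3 read 6.77, 6.95, 6.32 and 6.47 in p75Low and 6.56, 6.89, 7.28 and 6.61 in p75High, as log2 signal at chr3:75542215-75542274. The ranges overlapped, and the ratios of -0.20, -0.06, 0.96 and 0.13 had a mean of 0.21 ± 0.52 (SD, n = 4, adjusted p = 0.804). The 95% interval ran from -0.67 to 1.08. The signal was close to that of probes at background in both groups, and p75Low was not well above background on replicate 4, so a large drop in p75High could not have been measured by this probe. The sign of its mean turned without replicate 3, to -0.05.

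Lrp1 read 12.81, 12.47, 11.21 and 9.31 in p75Low and 13.09, 13.67, 9.90 and 9.89 in p75High by its brighter probe. The ratios were 0.28, 1.202, -1.31 and 0.58, with a mean of 0.19 ± 1.07 (SD, n = 4, adjusted p = 0.885) and a 95% interval of -1.13 to 1.51. The other probe read -3.72, -0.09, 0.61 and 0.10, with a mean of -0.77 ± 1.99 (adjusted p = 0.711 over probes). The probes differed most on replicate 1, and their root mean square difference over the arrays was 2.32. The sign of the Lrp1 mean was negative by the median over both probes (-0.29) and without replicate 2 (-0.15).

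**Figure D3:**
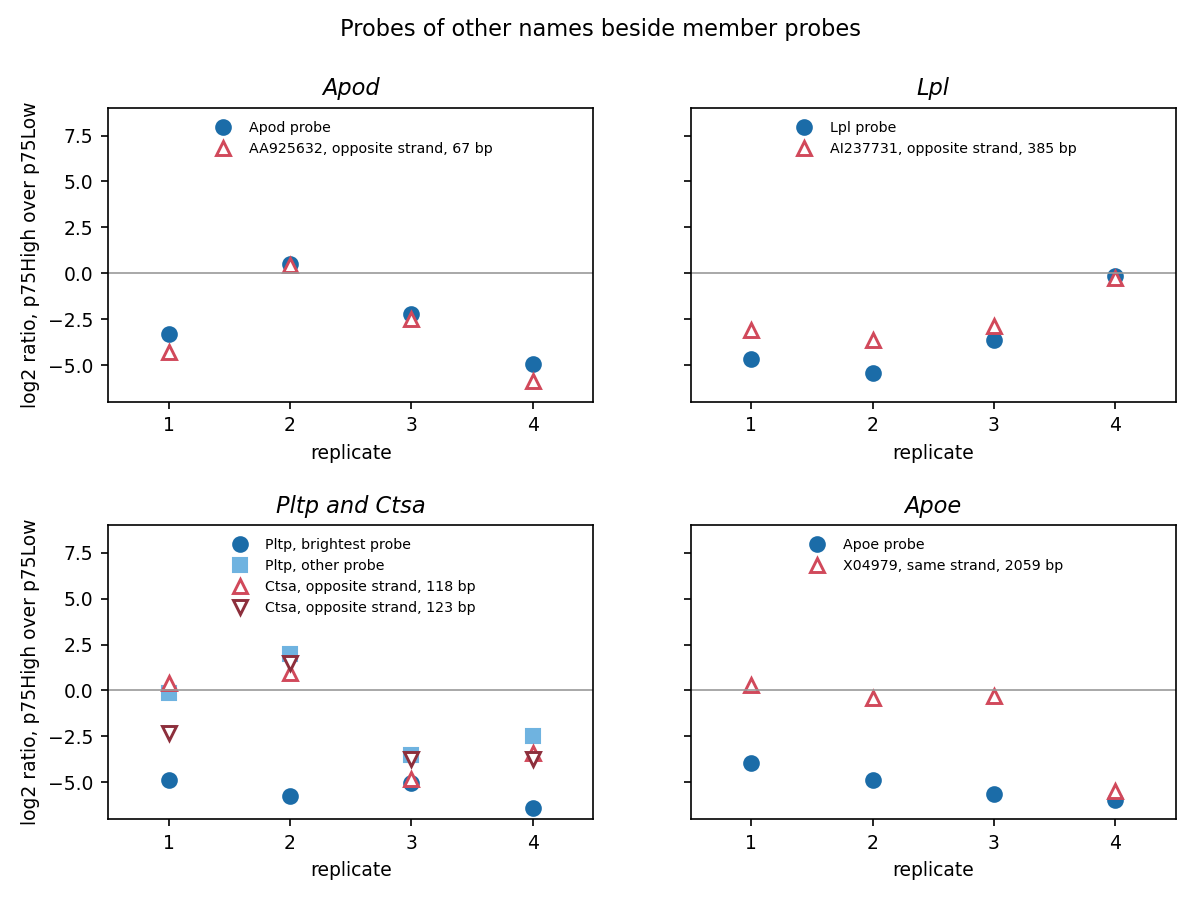
Log2 ratio of p75High over p75Low on each replicate (x axis) for member probes (filled) and for probes of other names nearby (open). The opposite-strand probe follows the Apod probe to within 1 log2 unit or so on each array, the 2 plotted Ctsa probes lie nearer to the second Pltp probe than the brightest Pltp probe does on each array, and X04979 meets the Apoe probe on replicate 4 only.

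Many macrophage and microglia markers were lower in p75High, as Apoe and Pltp were. Of 17 tested markers, 8 were lower in p75High at a limma adjusted p under 0.05 and 14 were negative on all 4 arrays. Over all genes tested, these shares were 0.436% and 13%. The median ratio of the markers was -4.34, with single markers between -6.11 and -1.25. The mean log2 signal over the 17 markers lay between 12.1 and 13.4 in p75Low and between 8.49 and 9.26 in p75High. None was at background throughout in either group, and 17 in p75Low and 16 in p75High were well above background on all 4 arrays. The filter on dim probes partly sets these counts. Itgam, an integrin subunit of myeloid cells, had a ratio of -5.77 ± 0.33, and Csf1r, the receptor for the main growth factor of macrophages, one of -6.08 ± 0.61. Adgre1, a macrophage surface receptor, had a ratio of -5.87 ± 0.69, and the adjusted p of each of these genes was 0.0262 in limma. The median over the probes of Csf1r was -0.25 (adjusted p = 0.711). Their part in the ratios of Apoe, Pltp, Lpl and Abcg1 was not tested. Of the 15 ensheathing and Schwann glia markers, 1 passed the threshold (Ngfr, higher), beside 0.31% higher over all genes. Ngfr encodes the protein used for the sort, and no other marker of that list passed. The list median, with Ngfr included, was 1.67. No tested marker of fibroblasts, astrocytes, endothelium or neurons passed, and their list medians were -0.62, 0.37, 1.19 and -0.32. Some macrophage markers also had ratios near 0 on replicate 4 alone, as Lpl and Abcg1 did. Among them, Cd14, a receptor for bacterial lipopolysaccharide, read -4.54, -5.30, -5.25 and -0.11. This example was chosen after its values were seen.

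Among 10587 genes with a symbol and a reading on all 4 arrays, the pattern of ratios nearest to that of Apoe was that of Gtpbp4, a GTP-binding protein of ribosome assembly, at a root mean square difference of 0.436. Cd180, a Toll-like receptor homologue of B cells and macrophages, stood at 0.446, Nckap1l, an actin regulator of blood cells, at 0.514 and Lrch4 at 0.544. The steps between these values are small beside the SD of Apoe itself over the arrays, 0.89. Pltp held rank 10, at 0.726. The mean ratio of Cd180 was -5.07 ± 0.52 and that of Gtpbp4 -5.09 ± 1.24 (adjusted p = 0.0515). By the median over its probes Gtpbp4 was at -2.33 (adjusted p = 0.126), so its place in the order rests on its brightest probe.

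The lists of other lipid genes held 94 genes, of which 68 were tested. None passed the threshold in either direction in limma, beside 0.31% higher and 0.436% lower over all genes. At an unadjusted p under 0.05, 6 were higher and 8 lower, beside 5.84% and 6.89% over all genes. The median ratio of the 68 genes was -0.11. Scanner ratios and the omission of readings at background each called 1 of them lower, and 7 of the alternatives called 1 or 2 higher.

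Of 9 other apolipoproteins, Apoa2, a protein of high-density lipoprotein, had the highest ratio, 1.64 ± 0.80 (adjusted p = 0.277), and Apob, the core protein of very-low-density lipoprotein, the lowest, -0.58 ± 0.72. Of 8 lipases and lipoprotein enzymes, the range ran from -0.81 ± 0.63 for Pla2g7, a phospholipase that travels on lipoproteins, to 0.44 ± 0.69 for Lipe, the hormone-sensitive lipase. The medians of these lists were 0.10 and -0.03, and no member of either passed. At an unadjusted limma p under 0.05, 2 of the 9 apolipoproteins were higher and 0 lower, beside 5.84% and 6.89% over all genes. Single genes varied more, as Lipa in the list of lipases had an SD of 3.16 over the arrays.

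Among 12 other lipid transporters, Abca8a, a transporter of the same family as Abca1, had positive ratios on all 4 arrays, at 5.93, 3.35, 4.47 and 4.41. Its mean of 4.54 ± 1.06 had an adjusted p of 0.0510, just above the threshold, and between 0.0113 and 0.194 over the alternatives. Npc2, which carries cholesterol out of lysosomes, had the lowest ratio of that list, -1.84 ± 0.40 (adjusted p = 0.137), and was negative on all 4 arrays. Abca8a thus had ratios of the opposite sign to Abcg1 on the 3 arrays that detected Abcg1.

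Among 16 other lipoprotein receptors, Msr1, the macrophage scavenger receptor, read -5.38, -6.40, -5.11 and -0.14. Its mean was -4.26 ± 2.80 (limma adjusted p = 0.304). With readings at background left out, an alternative chosen after seeing the data, the mean of Msr1 was -5.63 (adjusted p = 0.0458). The filter kept Msr1 only through p75Low, well above background on 3 arrays against 2 for p75High. Its low ratio is therefore no separate support. As for Lpl and Abcg1, the value near 0 was that of replicate 4. The highest ratio of that list, 3.22 for Lsr, rested on 1 reading after outlier spots were left out. With outlier spots kept it was 3.38 ± 0.705 (adjusted p = 0.0509). Trem2, a receptor of microglia and macrophages that binds apolipoprotein E, read -0.38, -1.24, -3.39 and -3.21, with a mean of -2.05 ± 1.48 (adjusted p = 0.341). It was named after its values were seen.

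Among 13 nuclear receptors and regulators of lipid genes, the ratio of Nr1h2 (LXR beta) was -2.26 ± 2.54 (adjusted p = 0.457). Rora, an orphan receptor of lipid metabolism and the clock, had the highest ratio of that list. It read 7.38, 5.92, 6.66 and 0.04, with a mean of 5.001 ± 3.36 (adjusted p = 0.308). With readings at background left out, an alternative chosen after seeing the data, its mean was 6.65 ± 0.73 (limma adjusted p = 0.0383). Without replicate 4 the same mean had an adjusted p of 0.0965. Among 10 genes of sterol storage and oxysterols, Scd2, a desaturase of fatty acids, had a ratio of 3.95 ± 3.10 and Lpcat3, which remodels phospholipids and is a target of LXR, one of -3.60 ± 2.18 (adjusted p = 0.345 and 0.283). Both SDs exceeded 2 log2 units, so these means are poorly fixed.

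**Figure D4:**
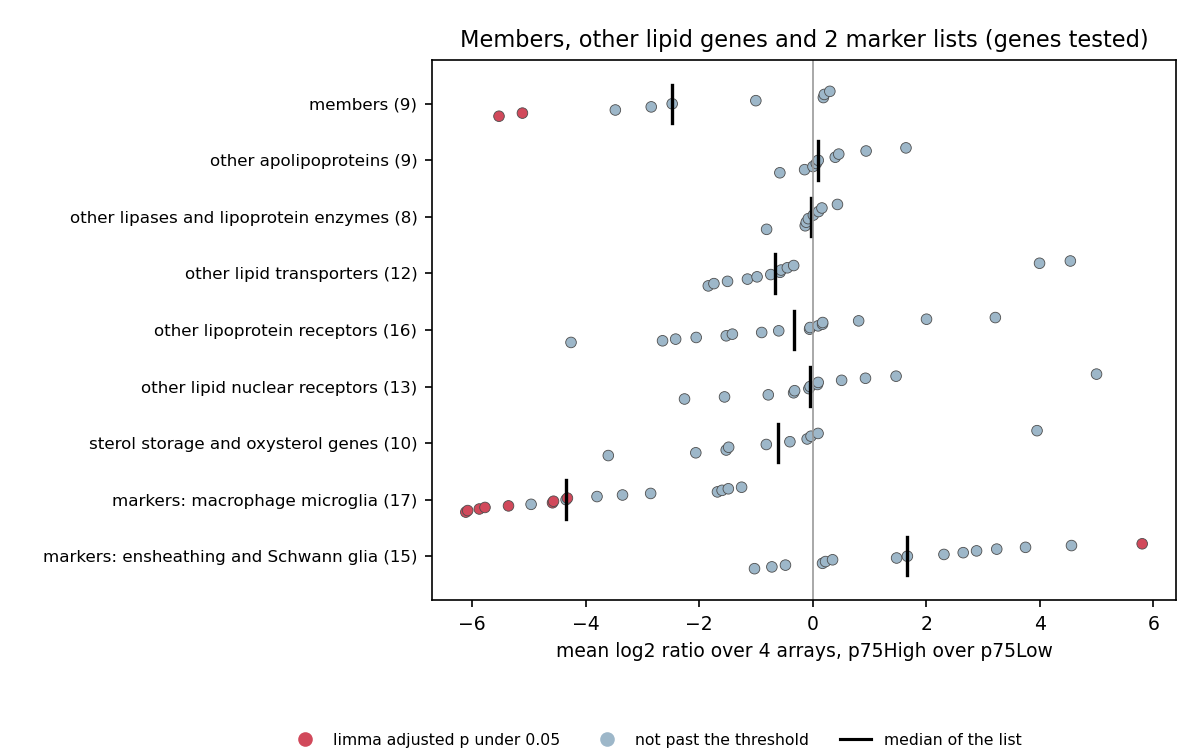
Mean log2 ratio of each tested gene (points) by list, with the list median as a bar and genes past the limma threshold in red. Apoe and Pltp, at -5.11 and -5.53, lie below every gene of the 6 other lipid lists, and the 17 macrophage and microglia markers all lie below 0 with a median of -4.34.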

How the data were processed

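Gene expression was measured in 4 paired p75High and p75Low samples. Bead-isolated mRNA was made into cDNA and amplified with the SuperAmp global PCR, and 250 ng of each cDNA was labelled, per the labels. The 4 arrays of Agilent design 014879 shared 1 slide and were quantified in Feature Extraction 10.5.1.1, per the file headers (10.5 per the submitters' processing notes). The deposited intensity values are, per the file headers, the mean brightness of each spot and the median of its local background, without normalization. The scanner's log10 ratios (Cy5 over Cy3), also deposited, come from background-subtracted and dye-normalized signals, per the file headers. The authors' value table held the same ratios (maximum difference 0, column medians 0).

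In limma 3.58.1 (R 4.3.3), normexp with an offset of 50 corrected the intensities, followed by loess with a span of 0.3 within arrays. For the log2 signals of each group, the mean of both channels of a spot was then quantile normalized across arrays (Aquantile). That step leaves the ratios unchanged, but comparisons of signals between arrays rest on it. Outlier spots and the 1639 control spots had weight 0, and 1112 of 173516 readings (0.641%) were left out as outliers. No spot was saturated. Repeat spots were averaged. Probes that one channel detected well above background on 3 or more of the 4 arrays were kept (24941), and the brightest stood for its gene. Ratios were tested against 0 (lmFit, eBayes, two-sided, Benjamini-Hochberg over 22225 genes), and 151 genes had a reading on fewer than 4 arrays. Names were updated through a RefSeq table (10835 probes by accession, 5196 by symbol, 3478 by older symbol, 21503 unmatched).

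Both channels of an array are 1 replicate, as the labels' design text says. The correlation of their deviations across genes was 0.127, 0.067, 0.068 and 0.265, against at most 0.049 between arrays. The fit was run on simulated ratios with known changes and independent normal noise of each gene's own SD. The simulated ratios held no background signal, no filter and no jumps on single arrays, so they cannot speak for the calls here. The members, lists, tests and naming rule were chosen with earlier results of these data known. The rule took all members with every probe, the highest and lowest gene of each lipid list and any past the threshold. It also took up to 3 markers of each list (those of the macrophage list are given), Ngfr, and the 5 genes nearest to Apoe. Not every gene that the rule took is reported here. Alternatives varied the filter, background correction, normalization, probe choice, pairing and arrays used. The number of arrays limits the precision.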

Additional observations from a re-analysis of the deposited data

Results flagged for a closer look

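Among 50 sets of 4 array values examined, 4 had 1 array far from the others, by a cut that about 1 set in 20 passes by chance. Some sets overlapped, and some, such as X04979, were chosen after their values were seen. The count therefore cannot be set against that rate. The Abca1 ratio was -4.14 on replicate 4, and the other arrays lay between -0.19 and 0.45. The dimmer Lrp1 probe read -3.72 on replicate 1 and between -0.09 and 0.61 elsewhere. Cd180 read -4.30 on replicate 1 and between -5.35 and -5.31 elsewhere, so it was far below 0 on every array. The probe named X04979 read -5.46 on replicate 4 and between -0.40 and 0.29 elsewhere.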

How the results depend on the processing

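The ratios of Apoe and Pltp stayed negative under all 13 alternatives, which for many of them was fixed in advance. All 4 arrays were negative for both genes, so leaving 1 out could not turn the mean. The filter and the pairing do not change a ratio. Apoe had 1 probe by gene name, so X04979 never entered the choice of probe. The limma adjusted p lay between 0.00102 and 0.159 for Apoe and between 0.00389 and 0.152 for Pltp. Each gene passed under 8 of the alternatives. With an array left out, 0 genes were called in either direction (814 to 1158 higher and 1022 to 1218 lower at an unadjusted p under 0.05), 0 members were lower, and Apoe lay between -5.50 and -4.83 (adjusted p 0.105 to 0.159) and Pltp between -5.74 and -5.23 (adjusted p 0.0965 to 0.138). Without the filter, 37 genes were higher and 52 lower, 1 member was lower, and Apoe was -5.11 (adjusted p = 0.0611). Scanner ratios called 113 genes higher and 154 lower, with 1 other lipid gene higher and 1 lower. When the pairing was ignored (no replicate block), 152 genes were higher, 156 lower and 2 other lipid genes higher, and both members stayed lower. The median over probes left 1 member lower, with Pltp at -3.28 (adjusted p = 0.152). The stricter filter (4 arrays), no background correction, median centring and outlier spots kept each called 1 other lipid gene higher, and readings at background left out, added after seeing the data, called 2 higher and 1 lower. Signs turned for Abca1 without replicate 4 (0.046, other omissions down to -1.484), Nr1h3 without replicate 3 (-0.045, others up to 0.342), and Lrp1 by the median over probes (-0.292) and without replicate 2 (-0.149, others up to 0.687). Lpl and Abcg1 had no value under the stricter filter. In all, 101 member ratios kept their direction and side of the threshold, 10 lost the call and 4 turned. The cause was not tested. Signal near background limits Clu, Nr1h3, Lpl and Abcg1, and also Abca1 on replicate 2. Low signal in p75Low limits how large a drop Apoc1 could show.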
